A study of Arabidopsis thaliana with 20 samples.

Results

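In Arabidopsis thaliana seedlings sampled in the dark and during their first day of light, 36809 open chromatin regions were found. Of these, 821 were without a dark peak and held one at each of the 3 later times, 30 min, 3 h and 24 h (background 2.23% of regions). They were chosen by merging nuclear peaks of the 4 lists that overlapped by at least 1 bp and keeping the regions with that pattern of presence. They are called early-opened, kept regions here, a name that stands for the pattern of peaks in single libraries. The choice itself used the presence of peaks in these 4 lists, so the pattern is a description and no test was made on it.

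The peaks come from DNase I-seq, in which small fragments cut from open chromatin by the nuclease DNase I are sequenced. All seedlings were 7 days old and of the Col-0 background. They carried the INTACT transgenes UBQ10:NTF::ACT2:birA, which put a biotin tag on nuclei so that these can be captured from whole seedlings. The UBQ10 and ACT2 promoters that drive them are active in most cell types. Dark-grown seedlings were sampled before any light, then at 30 min and 3 h in light, and at 24 h in a light and dark cycle. A second set, grown in the cycle of 16 h light at 22 °C and 8 h dark at 20 °C, gave the LD control, a spray control taken 3 h after 0.5% ethanol, and a heat shock of 30 min at 45 °C. These 3 lists of light-grown seedlings were not used to choose the regions.

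Each condition has 1 library, listed as 2 samples whose peak files are identical, so 14 samples gave 7 lists of 26712 (24 h) to 34637 (LD control) nuclear peaks. There is no replicate check of any difference, and no p-value is given. Intervals are 95% Wilson intervals over regions and cover counting error only. Depth in reads is unknown here, and a list holds no value for sites below the peak threshold, so no dark peak means only that none was listed. Over marker lists, the dark list had a promoter peak at 4 of 10 root, 6 of 9 guard cell, 6 of 9 epidermis and trichome and 4 of 9 vascular genes, and the 24 h list at 4, 5, 6 and 4 of them. Over all protein-coding genes, 60.7% had a promoter peak in the dark list and 60.3% in the 24 h list. Shares of cell types and openness per cell cannot be told apart in whole seedlings.

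Seedlings grown in the dark follow a programme of elongation with undeveloped plastids, in which phytochrome-interacting factors (PIFs) act on E-box and G-box sequences. Light activates phytochromes and cryptochromes, PIFs are degraded, and activators such as HY5, which binds G-boxes and other sequences with an ACGT core, turn on genes of chlorophyll synthesis, light harvesting and carbon fixation. The I-box and the GT-1 box are other elements known from promoters of photosynthesis genes, the evening element and the CCA1 binding site from clock-controlled genes, and site II elements and telo-boxes from genes of cell growth and ribosomes.

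The sequences of a few regions are given here because the results turn on them. The first set holds the regions at genes of light harvesting, chlorophyll synthesis, carbon fixation, flavonoid synthesis and auxin synthesis. Letters are those of the RefSeq copy of TAIR10 (TAIR10.1), 5′ to 3′ on the strand of the nearest or named gene. Each is the part of the central 150 bp outside annotated untranslated sequence, apart from RBCS1A, where 30 bases with the most motif letters are shown. Capitals mark the motifs searched for.
LHCB1.4 and LHCB1.5, chr2:14524421-14524570, plus strand: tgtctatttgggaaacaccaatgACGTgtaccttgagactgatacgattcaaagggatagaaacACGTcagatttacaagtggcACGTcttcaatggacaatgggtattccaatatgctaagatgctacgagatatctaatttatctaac
CHLI1, chr4:10203470-10203580, minus strand: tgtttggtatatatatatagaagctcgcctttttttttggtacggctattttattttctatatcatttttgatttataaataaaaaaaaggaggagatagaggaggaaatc
RBCS1A, chr1:25049503-25049532, minus strand: GATAAGattcatggaattatcttcCACGTG
F3H, chr3:19024501-19024650, plus strand: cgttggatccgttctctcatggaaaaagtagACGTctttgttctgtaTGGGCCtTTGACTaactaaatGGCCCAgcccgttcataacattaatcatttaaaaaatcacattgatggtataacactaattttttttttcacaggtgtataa
YUC2, chr4:7724071-7724200, minus strand: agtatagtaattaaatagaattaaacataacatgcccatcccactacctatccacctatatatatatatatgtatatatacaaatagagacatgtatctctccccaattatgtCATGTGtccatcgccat

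The next set holds 2 of the regions with the highest signal, at the genes ABO3 and AT2G45610, then both regions upstream of VTC2, and a region at CBF4 that had no peak in any list of light-grown seedlings.
ABO3, chr1:24847821-24847970, plus strand: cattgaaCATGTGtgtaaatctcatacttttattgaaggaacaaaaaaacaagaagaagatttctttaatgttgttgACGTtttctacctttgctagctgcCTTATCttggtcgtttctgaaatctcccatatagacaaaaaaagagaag
AT2G45610, chr2:18790421-18790570, plus strand: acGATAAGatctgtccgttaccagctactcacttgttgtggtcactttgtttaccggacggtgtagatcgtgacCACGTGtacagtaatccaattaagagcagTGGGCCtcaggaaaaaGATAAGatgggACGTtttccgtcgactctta
VTC2, chr4:13501702-13501790, minus strand: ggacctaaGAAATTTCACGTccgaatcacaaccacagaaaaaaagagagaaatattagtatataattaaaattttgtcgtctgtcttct
VTC2, chr4:13502441-13502590, minus strand: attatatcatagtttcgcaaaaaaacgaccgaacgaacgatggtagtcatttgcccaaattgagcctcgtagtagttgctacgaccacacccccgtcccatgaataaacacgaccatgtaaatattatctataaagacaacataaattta
CBF4, chr5:21118371-21118520, minus strand: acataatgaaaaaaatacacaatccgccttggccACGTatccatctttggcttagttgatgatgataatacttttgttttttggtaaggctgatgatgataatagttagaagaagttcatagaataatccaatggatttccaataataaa
The LHCB1.4 sequence holds 3 ACGT cores and no G-box. The central 150 bp of the CHLI1 region also hold an I-box, which lies outside the part shown. Likewise not shown are a GT-1 box at RBCS1A and a site II element TGGGCT at the first VTC2 sequence. The 30 bases of RBCS1A, which encodes a small subunit of Rubisco, hold an I-box and a G-box at their ends. They lie in the 5′ untranslated part of the longer annotated transcript and upstream of the start of the shorter one.

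Listed genes next to these regions were few. They were of light harvesting, carbon fixation, chlorophyll, flavonoid and auxin synthesis and the heat response. A promoter window, which here reaches 1000 bp before and 200 bp past an annotated start, touched an early-opened, kept region in 614 of 27444 protein-coding genes (background 2.24%). Among 277 genes of 15 lists the count was 8, or 2.89%. Heat response had 1 of 12 (8.33%), light harvesting and photosystem genes 3 of 46 (6.52%) and carbon fixation 1 of 16 (6.25%). Light protection and flavonoids had 1 of 16 (6.25%), chlorophyll synthesis 1 of 20 (5%) and auxin and cell wall growth 1 of 30 (3.33%). These counts rest on 7 regions. With light-series lists of equal length the regions of LHCA5, LHCB1.4 and LHCB1.5, CHLI1 and YUC2 were lost, and light harvesting and chlorophyll synthesis had 0. With merging at 75 bp those of RBCS1A and YUC2 were lost, and carbon fixation and auxin had 0. In the upper 50% by signal that of MBF1C alone was left. The other 9 lists had 0, among them light signalling (0 of 44), the circadian clock (0 of 20), cold, touch and wound response (0 of 16) and housekeeping (0 of 12). Some counts rose under other settings. With merging at 75 bp light harvesting had 4, root markers 1 and epidermis and trichome markers 1. With light-series lists of equal length root markers had 1. All 20 clock genes had a promoter peak in the dark list already, while 33 of 46 light harvesting genes did in the dark, 36 after 30 min, 44 after 3 h and 42 after 24 h. Over all genes the shares at these times were 60.7%, 62.3%, 68.1% and 60.3%, also with the highest in the 3 h list, which is the longest.

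LHCB1.4 and LHCB1.5, neighbouring genes of chlorophyll-binding antenna proteins, shared 1 region at chr2:14524381-14524610. The midpoint of this region lay 111 bp upstream of LHCB1.4 and 928 bp upstream of LHCB1.5. Its signal, the authors' score for a peak, stood at percentile 1.35 of the 30 min list, 9.69 of the 3 h list and 19.5 of the 24 h list. In light-grown seedlings it stood at percentile 97.9 of the LD control, 95.6 of the spray control and 91.7 of the heat shock list. The region was thus among the weakest listed after 30 min and among the strongest of each list from light-grown seedlings. Percentiles rank a peak within its own list, and lists of unequal length and composition show no change in openness through them. The nearest dark peak was 7930 bp away.

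RBCS1A had its region at chr1:25049341-25049590, with the midpoint 201 bp downstream of the annotated start. It stood at percentile 12.7 after 30 min, 48.9 after 3 h and 53.1 after 24 h, and the LD control held it at 97.2, the spray control at 93.5 and heat shock at 88.99. As at LHCB1.4, the 3 lists of light-grown seedlings held it near their top. Another part of the RBCS1A promoter window did hold a dark peak, and the nearest dark peak was 450 bp from the region.

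CHLI1, a subunit gene of magnesium chelatase in chlorophyll synthesis, had a region at chr4:10203421-10203590, 37 bp upstream of its start, with no dark peak in the window and the nearest 5170 bp away. It stood at percentile 4.099 after 30 min, 34.2 after 3 h and 27.4 after 24 h, and the LD control held it at 34.8, the spray control at 25.7 and heat shock at 39.1. LHCA5, an antenna protein of photosystem I, had one at chr1:17179161-17179430 that stayed among the weakest peaks: 2.62 after 30 min, 17.55 after 3 h, 1.01 after 24 h, 4.01 in LD control, 8.56 in spray control and 23.4 in heat shock seedlings. So the regions of light harvesting and chlorophyll genes had low ranks in the light series, and those of LHCB1.4 and RBCS1A alone among the 7 at listed genes stood above percentile 90 of the LD control.

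F3H, flavanone 3-hydroxylase of flavonoid synthesis, had a region at chr3:19024481-19024670, 616 bp upstream, that also lies in the window of its neighbour AT3G51230. It stood at percentile 26.8 after 30 min, 65.3 after 3 h and 64.0 after 24 h, and at 60.5, 76.7 and 81.2 in the LD control, spray control and heat shock lists. The F3H window also had a dark peak. YUC2, a flavin monooxygenase of auxin synthesis, differed from these in light-grown seedlings. Its region, chr4:7724001-7724250, had percentiles of 8.11, 12.9 and 8.22 at the 3 times, no peak in the LD control or the spray control, and percentile 15.3 after heat shock.

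MBF1C, a transcriptional coactivator of the heat response, had its region at chr3:8918441-8918590, 249 bp downstream of its start and within the window of the neighbouring MSH7, a mismatch repair gene. It stood at percentile 79.4 after 30 min, 85.2 after 3 h and 67.9 after 24 h. This region had no peak in the LD control and the spray control, and stood at 94.8 after heat shock. The MBF1C promoter window held a peak elsewhere in both controls and in the dark list. A dark peak at percentile 70.2 of its list lay 50 bp from it. When regions with a dark peak within 150 bp were left out, this region was lost and the heat response list had 0 of 12.

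**Figure D1:**
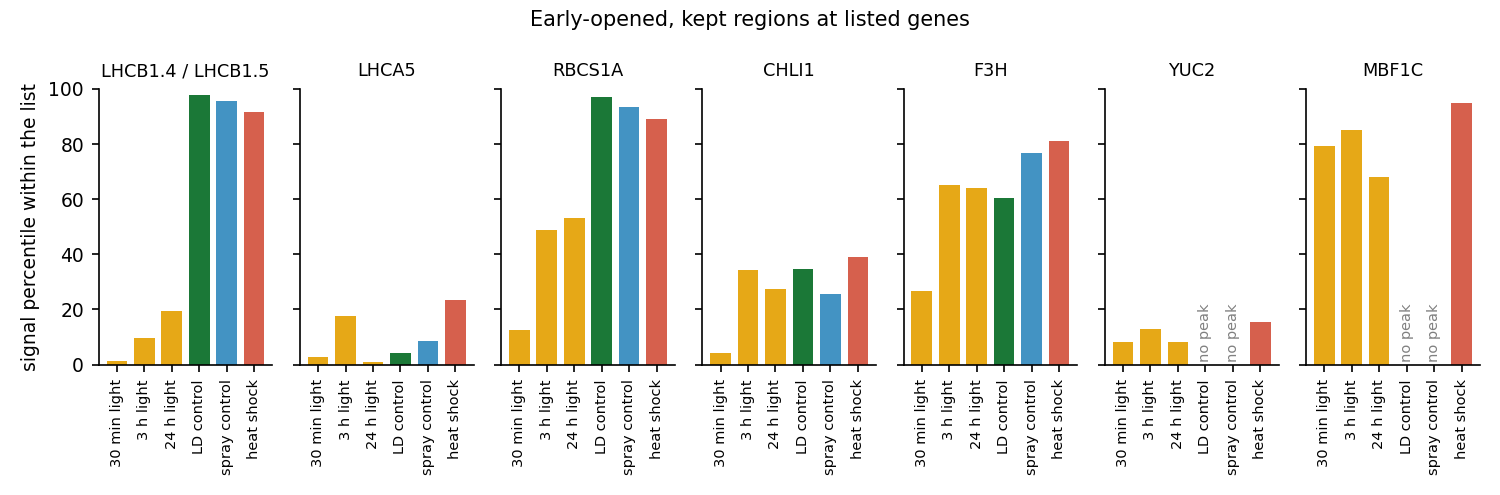
Signal percentile (0 to 100, within each list) of the early-opened, kept regions at listed genes, with 1 bar per list: 30 min, 3 h and 24 h of light in yellow, LD control in green, spray control in blue and heat shock in red. The region of LHCB1.4 and LHCB1.5 stands at 1.35 after 30 min and 97.9 in the LD control, and YUC2 and MBF1C have no peak in either control list.

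Most early-opened, kept regions were weak peaks of the lists that chose them. Their median percentile was 12.7 after 30 min (quartiles 5.78 and 24.2), 23.5 after 3 h (14.3 and 36.3) and 15.3 after 24 h (7.50 and 31.9). Regions open at all 4 times had medians of 59.3, 62.9 and 56.2 in these lists. All 3 percentiles were under 50 in 670 of the 821 (81.6%) and at or above 50 in 54 (6.58%). In the lists that played no part in the choice, those present had medians of 26.3 (LD control, n = 561), 28.9 (spray control, n = 523) and 26.5 (heat shock, n = 556), against 66.2, 67.2 and 64.7 for regions open at all 4 times. They were weak peaks in light-grown seedlings too, but not they alone. Regions with a peak at 3 h and 24 h only had medians of 27.0, 29.5 and 28.6 in these 3 lists. Regions with a peak at 30 min only had 27.8, 27.5 and 29.0. In the light lists the former had medians of 18.3 at 3 h and 11.8 at 24 h, and the latter 8.68 at 30 min.

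**Figure D2:**
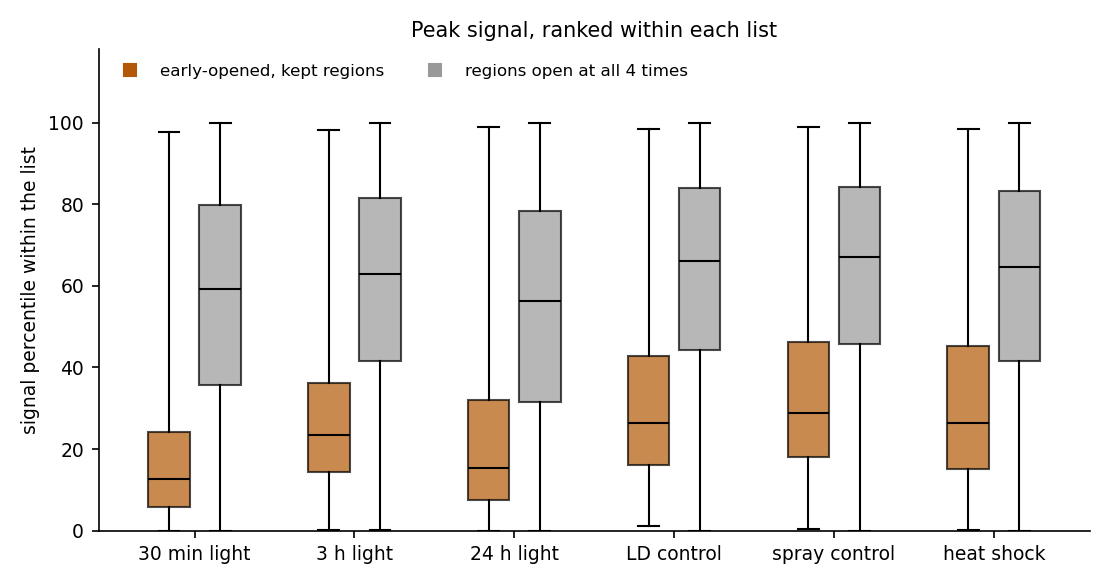
Signal percentile within each list for early-opened, kept regions (brown) and regions open at all 4 times of the light series (grey). Boxes give quartiles with the median as a line, and whiskers reach the lowest and highest value; in the 3 lists on the right, 561, 523 and 556 of the 821 brown regions had a peak. The brown median lies between 12.7 and 28.9, and the grey median between 56.2 and 67.2.

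The few strong ones lay beside dark peaks. The gap to the nearest dark peak ran from 10 bp to 65510 bp with a median of 1050 bp. A dark peak lay within 150 bp of 128 regions (15.6%, 13.3 to 18.23%) and within 500 bp of 258 (31.4%). The share within 150 bp was 11.4% (9.42 to 13.7%) in regions of 3 h and 24 h only. It was 18.24% (15.9 to 20.9%) in regions of 30 min only. Both intervals overlap that of early-opened, kept regions, so a near dark peak did not set these apart. Of the 54 regions at or above percentile 50 at all 3 times, 47 (87.0%) were among the 128. The 7 others, at NPG1, SUS3, AT4G05160, AT5G04830, AT5G18470, SIP1 and CBF4 (named after their values were seen), had gaps of 190 to 570 bp. Of the 421 regions more than 1000 bp from a dark peak, 0 were at or above percentile 50 at all 3 times. These percentiles come from the lists that chose the regions, so this is a description.

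The 128 regions with a dark peak within 150 bp had median percentiles of 40.1 after 30 min, 50.7 after 3 h and 52.2 after 24 h, and the other 693 had 11.5, 22.1 and 13.9. The neighbouring dark peaks had a median percentile of 45.9 in their own list. For 74 of the 128, the dark peak belonged to a region with a peak in the dark list only, for 20 to a region open at all 4 times and for 34 to a region open at some light times. The 74 make up 5.85% of 1265 regions with a dark peak only. At these places the lists hold a dark peak and, next to it, a peak of all 3 light lists.

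The presence rule sets a sharp edge between such neighbours. Just inside it, 44 regions had a dark peak within 30 bp and a median percentile of 59.3 in the 3 h list. Just outside it, 73 regions counted as open at all 4 times although their dark peaks overlapped a light peak by 30 bp or less, down to 10 bp, and their median was 47.1 in the 3 h list and 32.03 in the dark list. With merging only of peaks that share at least 75 bp, 990 regions had the pattern, and 657 of the 821 (80.0%) were kept.

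**Figure D3:**
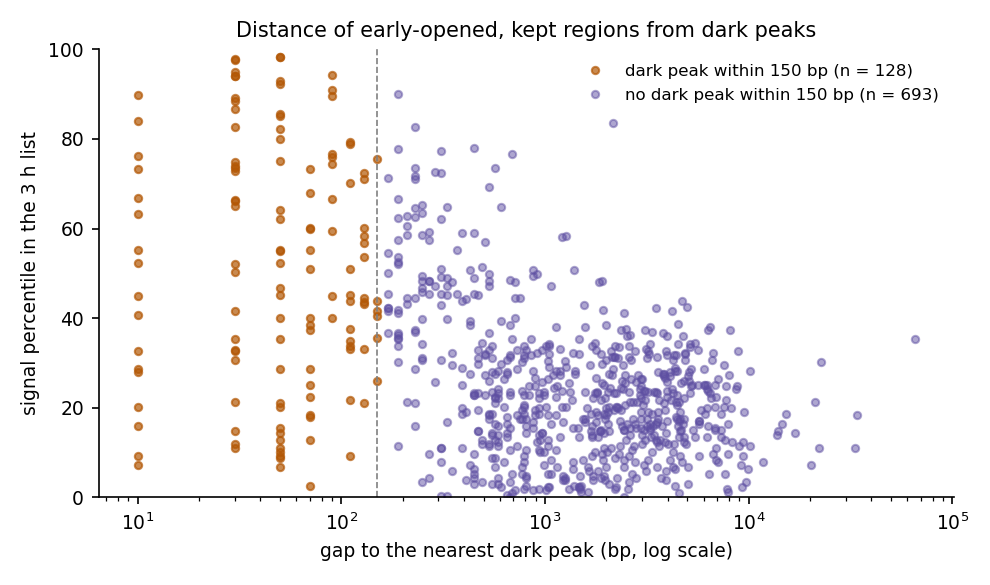
Gap in bp between each early-opened, kept region and the nearest dark peak (log axis) against its signal percentile in the 3 h list; brown points have a dark peak within 150 bp (n = 128, left of the dashed line) and purple points do not (n = 693). The median is 50.7 for brown and 22.1 for purple points.

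The 10 regions with the highest lowest percentile over the 3 times, 88.8 to 97.6, all had a dark peak within 10 to 90 bp, and that dark peak stood at percentile 86.3 to 97.6 of its list. In 6 of them it belonged to a region seen in the dark only. The centres of the region and the dark peak were 160 to 260 bp apart. ABO3, a WRKY transcription factor gene of abscisic acid responses, had the region chr1:24847821-24847970, 424 bp upstream of its start, at percentiles 97.8, 94.1 and 97.7 after 30 min, 3 h and 24 h, with a dark peak at 96.4 whose centre was 180 bp away. It had no peak in either control and stood at 98.1 after heat shock.

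PIP2B, a water channel of the plasma membrane, had chr2:15616101-15616250, 1154 bp upstream, at 92.7, 97.7 and 96.4, with a peak in all 3 lists of light-grown seedlings (98.4, 97.1 and 96.7). MDAR4, a reductase that recycles ascorbate, had chr3:10313341-10313530, 1574 bp upstream, at 93.8, 97.5 and 98.6, with 81.5 in the LD control and no peak in the other 2. A region in an intron of the bHLH factor gene AT1G05805 (chr1:1745781-1745930) had 97.6, 98.3 and 99.0, no peak in the LD control, and 96.8 in both the spray control and heat shock lists. AT3G26539, of unknown function, had 97.8, 98.3 and 97.5 and a dark peak at 97.6. These regions differed among themselves in whether the controls held them.

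The rest of the 10 lay near EDA12, AT1G65510, AT2G45610, AT1G62660 and APS4. APS4 encodes an ATP sulfurylase of sulfate assimilation, and its region lay 21 bp downstream of the start at percentiles 88.8, 91.0 and 94.5. AT2G45610, an alpha/beta-hydrolase gene, had its region 793 bp upstream at 91.0, 94.9 and 92.5. It was a peak of the spray control (98.9) and of neither the LD control nor heat shock. Of the 10, 7 had a peak in the LD control and 4 lay in a promoter window.

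Each full list of light-grown seedlings held a peak at most early-opened, kept regions, but at a smaller share than over all regions. A peak of the LD control overlapped 561 of the 821 (68.3%, 65.1 to 71.4%), beside a background of 77.2% over all light-series regions. The spray control did so for 523 (63.7%, 60.4 to 66.9%; background 75.2%) and heat shock for 556 (67.7%, 64.4 to 70.8%; background 75.6%). All 3 lists held 371 (45.2%, 41.8 to 48.6%; background 63.5%) and none held 119 (14.5%, 12.3 to 17.1%; background 12.6%). Each share in a list was thus below its background, which is led by the 21900 regions open at all 4 times with 92.6% in the LD control. This order did not hold for heat shock with merging at 75 bp, where the share was 75.2%, against 74.99% of all regions. In that setting the LD control gave 74.9%, against 76.6%, and the spray control 70.1%, against 73.99%.

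Against regions of other light-series patterns the order differed. The LD control share was 68.3% in early-opened, kept regions, against 56.7% (53.3 to 60.01%) in 843 regions with a peak at 3 h and 24 h only and 29.7% (26.8 to 32.7%) in 910 regions with a peak at 30 min only. The intervals do not overlap. The spray control gave 63.7%, against 49.8% and 32.7%, and heat shock 67.7%, against 59.1% and 24.0%. Of the 28824 peaks of the 30 min list, 3034 overlapped no dark peak (10.5%). Among the 2892 merged regions with a 30 min peak and no dark peak, 821 had both later peaks (background 28.4%), 841 had a 3 h peak without a 24 h peak, 320 the reverse and 910 neither. The 841 had an LD control share of 64.9% (61.6 to 68.1%), close to that of the 821, and the 320 had 40.3% (35.1 to 45.8%). In the spray control the 841 had a higher share than the 821, 71.6% (68.4 to 74.5%) against 63.7% (60.4 to 66.9%). After heat shock they had 62.5% (59.2 to 65.8%), against 67.7% (64.4 to 70.8%) of the 821, with overlapping intervals.

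The size of these shares depended on list length. With the 3 lists of light-grown seedlings each shortened to their 26712 strongest peaks, the LD control share was 40.2% in early-opened, kept regions, against 32.4% in regions of 3 h and 24 h only, 15.7% in regions of 30 min only and 66.2% in all regions. The order of the 3 patterns was the same. It was not the same with only the upper 50% of each light list by signal, where 59.3% of 54 early-opened, kept regions and 67.1% of 82 regions of 3 h and 24 h had an LD control peak. Patterns with 1 other missing time had LD control shares of 70.7% (no 30 min peak, n = 564), 56.6% (no 3 h peak, n = 895) and 79.8% (no 24 h peak, n = 2294), so 68.3% for a missing dark peak lay inside their range.

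**Figure D4:**
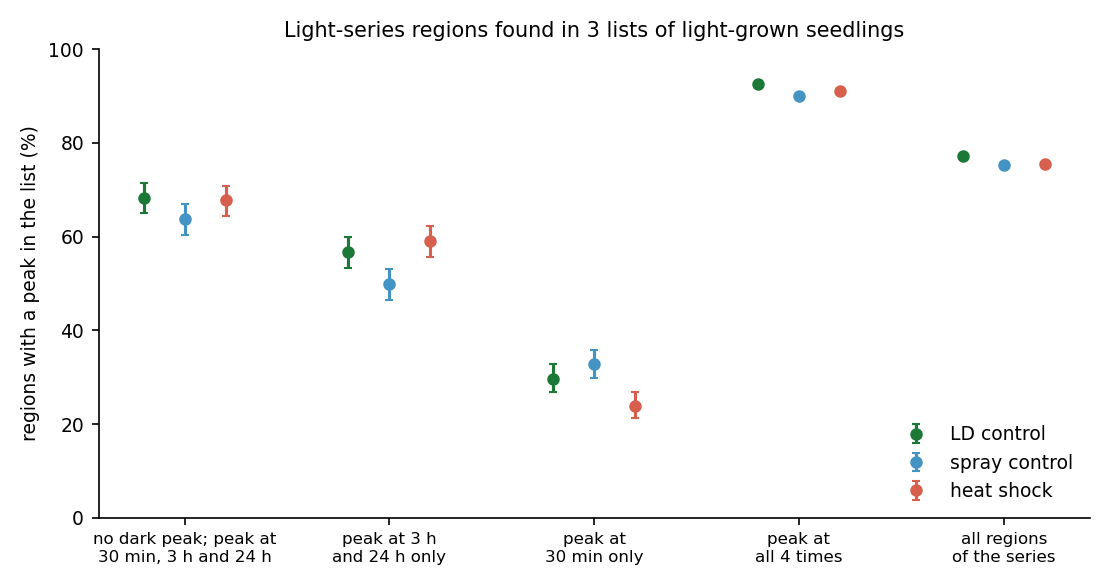
Share of regions (%) with a peak in the LD control (green), spray control (blue) and heat shock (red) lists, by their pattern in the light series; bars are 95% Wilson intervals. Early-opened, kept regions stand at 63.7 to 68.3%, regions seen at 3 h and 24 h only at 49.8 to 59.1%, regions seen at 30 min only at 24.0 to 32.7% and all regions at 75.2 to 77.2%.

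Regions beside a dark peak had a lower LD control share than the others. Of the 128 with a dark peak within 150 bp, 69 had an LD control peak (53.9%, 45.3 to 62.3%), against 492 of the other 693 (71.0%, 67.5 to 74.3%). In the spray control the shares were 53.1% (44.5 to 61.6%) and 65.7% (62.0 to 69.1%), with intervals that do not overlap. After heat shock they were 64.1% (55.5 to 71.9%) and 68.4% (64.8 to 71.8%), with overlapping intervals. The 5 strongest regions with no peak in any list of light-grown seedlings lay at AT5G65910, SUS3, CBF4, NPG1 and AT4G29930. SUS3, a sucrose synthase gene, had its region at chr4:994781-994970, 150 bp downstream of the start, at percentiles 84.1, 90.0 and 85.4. CBF4, a drought-responsive factor of the C-repeat binding family, had chr5:21118321-21118570, 586 bp upstream, at 73.9, 82.7 and 72.9. NPG1, a calmodulin-binding protein gene named for pollen germination, had 84.3, 71.0 and 78.7 at 400 bp upstream.

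At the other end, 10 regions stood at or above percentile 90 of the LD control. They were chosen after their values were seen. Besides LHCB1.4, RBCS1A, PIP2B, AT3G26539 and EDA12 they lay at AT2G45180, DREB1A, AT3G62260, AT3G57020 and AT1G69160. The region of LHCB1.4 was the 1 of the 10 under percentile 50 at all 3 times. AT3G57020, a gene of the calcium-dependent phosphotriesterase family, had chr3:21101041-21101210, 607 bp upstream and 2150 bp from a dark peak, at percentiles 11.0 after 30 min, 83.5 after 3 h and 96.7 after 24 h, with 92.1 in the LD control. DREB1A, a regulator of cold responses, had a region 1514 bp downstream of its start and past the end of the gene. It stood at 74.5, 94.0 and 84.7 and at 95.01 in the LD control, with a dark peak 30 bp away.

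Early-opened, kept regions had a somewhat higher promoter share than regions at large. Their midpoint was in a promoter window in 527 (64.2%, 60.9 to 67.4%), beside a background of 58.6%. The share was 60.1% (56.8 to 63.4%) in regions of 3 h and 24 h only, 45.4% (42.2 to 48.6%) in regions of 30 min only and 63.7% (63.0 to 64.3%) in regions open at all 4 times. With the upper 50% by signal it was 55.6% of 54 regions, under the 59.8% of all regions in that setting. Outside windows, 19 lay in 5′ untranslated sequence, 26 in coding sequence, 33 in introns, 33 in 3′ untranslated sequence and 183 elsewhere.

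Part of the difference in position from all regions lay on the transcribed side of the start. Midpoints 0 to 200 bp downstream of the nearest start made up 21.3% (18.7 to 24.2%), against 15.3% of all regions, and midpoints up to 200 bp upstream 24.1% (21.3 to 27.2%), against 23.3%. The downstream share was 19.0% (16.5 to 21.8%) in regions of 3 h and 24 h only, an overlapping interval. It was 16.4% in regions open at all 4 times and 11.0% in regions of 30 min only. Over 1 kb from any start lay 251 (30.6%, 27.5 to 33.8%), against 36.0% of all regions. This share was 34.2% (31.0 to 37.4%) in regions of 3 h and 24 h only, 31.8% in regions open at all 4 times and 46.2% in regions of 30 min only. On the 5 chromosomes early-opened, kept regions made up 2.07 to 2.36% of all light-series regions. They were 150 to 370 bp wide with a median of 190 bp, against 170 bp over all regions.

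At least 1 promoter window was touched by 545 of the regions, and 66 touched windows of genes on both strands. Of the 614 genes touched, 397 (64.7%) had no dark peak anywhere in the window, which is 1.45% of all genes. The 397 became 174 with light-series lists of equal length and 0 in the upper 50% by signal. Over all genes 39.3% had no dark peak there, but the rule bars a dark peak from part of each touched window, so the 2 shares are not free of each other. The other 217 genes, RBCS1A and F3H among them, had a dark peak elsewhere in the window.

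VTC2, GDP-L-galactose phosphorylase of ascorbate synthesis, was 1 of 3 genes with 2 such regions in the window. The nearer one, chr4:13501641-13501790, lay 15 bp upstream of the start at percentiles 30.0, 59.0 and 62.3, and the farther one, chr4:13502421-13502610, 815 bp upstream at 19.4, 65.1 and 59.8. Both had a peak in all 3 lists of light-grown seedlings, and a dark peak lay 30 bp from the farther one. The other 2 genes, DBR1, an RNA lariat debranching enzyme, and MGD1, a galactolipid synthase of plastid membranes, are neighbours that share the same pair of regions. In all, 6 pairs of regions were under 1 kb apart, and 5 of them are named here, the others near ZF14, FAS1 and AT4G16750. The widest region, 370 bp, lay near BGLU27. Another 6 regions were 350 bp wide, 2 of them near AT5G15320 and CLC-A, a vacuolar anion exchanger gene.

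In sequence, early-opened, kept regions had a lower share with site II elements than regions at large. Their G-box share was a little below the background. Both strands of the central 150 bp of each region were searched for motifs. The site II element TGGGCC was in 72 of the 821 (8.77%, 7.02 to 10.9%), beside a background of 17.1%, and TGGGCT in 65 (7.92%; background 15.1%). Either form was in 13.9% (11.7 to 16.4%), against 7.35% (5.78 to 9.32%) in regions of 3 h and 24 h only, 9.45% (7.72 to 11.5%) in regions of 30 min only and 30.6% in regions open at all 4 times. The site II share of TGGGCC was below that of all regions under each way of choosing regions tried. The median GC content of the central 150 bp was 33.3%, against 32.7%, 34.7% and 36.7% in these 3 sets and 36% over all regions, and its part in the motif shares was not tested.

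The G-box CACGTG was in 57 (6.94%, 5.40 to 8.89%), beside a background of 8.96%. Among the 693 regions with no dark peak within 150 bp, the G-box was in 7.07% (5.39 to 9.23%), an interval that holds the background. It was in 5.93% of regions of 3 h and 24 h only, 3.297% (2.32 to 4.67%) of regions of 30 min only and 11.1% of regions open at all 4 times. ACGT, which every G-box holds, was in 39.0% (35.7 to 42.4%; background 42.2%). The PIF binding E-box CACATG was also in 57 (6.94%, 5.40 to 8.89%; background 10.8%), but in the upper 50% by signal it was in 14.8% of 54 regions, against 11.5% of all regions in that setting. The I-box GATAAG, in 10.6% (8.67 to 12.9%; background 10.3%), and the GT-1 box GGTTAA, in 8.16% (6.48 to 10.2%; background 7.71%), stood near their background. A match is a run of letters and not a bound site.

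**Figure D5:**
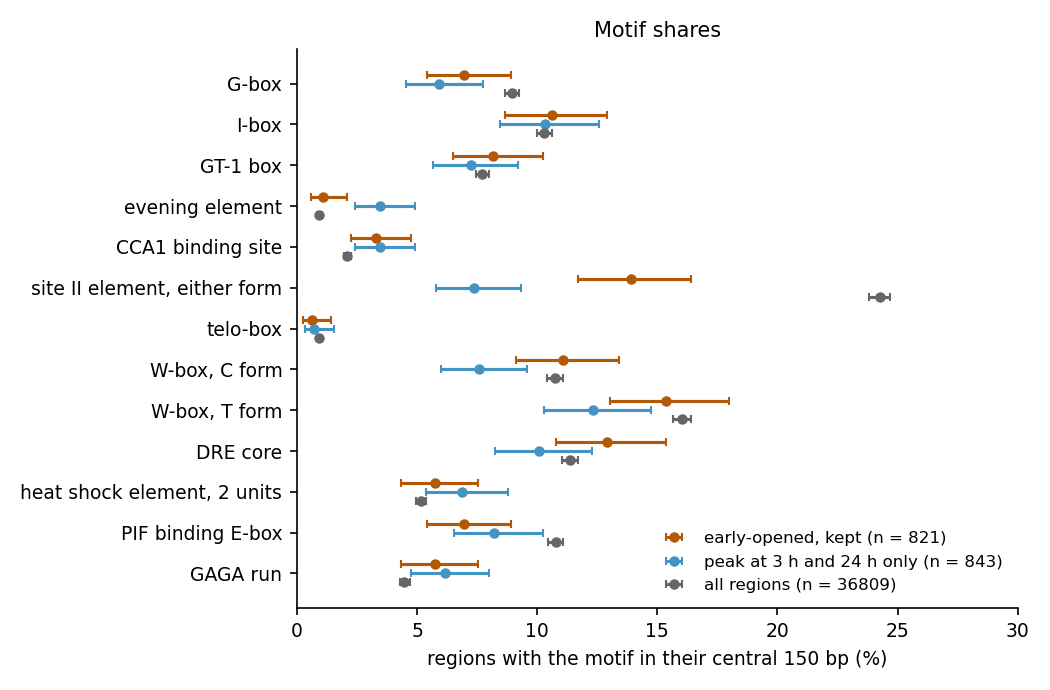
Share of regions (%) with each motif in their central 150 bp, for early-opened, kept regions (brown, n = 821), regions with a peak at 3 h and 24 h only (blue, n = 843) and all light-series regions (grey, n = 36809); bars are 95% Wilson intervals. Site II elements of either form stand at 13.9% in brown, 7.35% in blue and 24.3% in grey, and the evening element at 1.096%, 3.44% and 0.929%.

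The clock motifs stood differently against regions of 3 h and 24 h only. The evening element AAAATATCT was in 9 regions (1.096%, 0.578 to 2.07%; background 0.929%), against 29 of 843 (3.44%, 2.41 to 4.90%) regions of 3 h and 24 h only, and these intervals do not overlap. The CCA1 binding site AAAAATCT was in 27 (3.29%, 2.27 to 4.74%; background 2.09%), close to 3.44% in regions of 3 h and 24 h only. The W-box TTGACC was in 11.1% (background 10.7%) and TTGACT in 15.3% (background 16%), the dehydration-responsive element core CCGAC in 12.9% (10.8 to 15.4%; background 11.4%), the heat shock element of 2 units GAANNTTC in 5.72% (background 5.16%), and GAGAGAGA in 5.72% (4.33 to 7.53%; background 4.47%). The telo-box AAACCCTAA was in 5 regions (0.609%; background 0.916%).

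Among promoter regions with a G-box, those with the highest ranks lay at AT2G45610, AT3G62260, AT5G04830, AT5G03204 and AOC3. AT3G62260, a protein phosphatase 2C gene, had its region 58 bp upstream at percentiles 81.9, 89.5 and 84.8, with 93.2 in the LD control and a dark peak 90 bp away. AOC3, an allene oxide cyclase of jasmonate synthesis, had one 36 bp downstream at 46.1, 63.3 and 40.5, with 38.7 in the LD control and a dark peak 10 bp away. The central part shown for AT2G45610 holds a G-box, 2 I-boxes and a site II element.

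The regions with an evening element and the highest ranks lay at MPK7, a MAP kinase, G6PD5, a glucose-6-phosphate dehydrogenase, and AT2G41670. MPK7 stood at 34.1, 44.9 and 41.0, and G6PD5 at 8.68, 30.8 and 20.6. Neither had a peak in the LD control or the spray control, while both had one after heat shock. AT2G41670 stood at 7.55, 18.3 and 67.9 and differed from them. Its region had percentile 28.2 of the LD control list and 20.1 of the heat shock list, with no spray control peak. For the telo-box they were AT3G43710, AT4G18395 and AT5G17440, a LUC7-related gene, whose region stood at 1.35, 11.5 and 1.74, 10150 bp from a dark peak. For the I-box they were ABO3, AT2G45610 and CLC-A, which stood at 72.5, 64.1 and 91.6 with a dark peak 50 bp away.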

How the data were processed

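The data are DNase I-seq peak lists of 14 samples from 7 conditions; 6 RNA-seq samples are not analysed here. Per the labels, nuclei captured through biotin were cut with 45 units of DNase I at 25 °C during 3 min, and small double-cut fragments were sequenced. Bowtie 0.12.7, CASAVA 1.8.2 and the TAIR10 build are named per the submitters' processing notes. How and at which threshold peaks were called, and which lists come from subsampled reads, is not given in the sources used here. Identical peak files of the single-end and paired-end entries of a library were counted once.

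The deposited lists give 1 signal value per peak, the authors' score with no stated normalization, which was used as a mid-rank percentile within a list. The authors' −log10 p-value column was not used for ranking. Over 99% of peaks are 150 bp wide. Organelle peaks were left out.

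Nuclear peaks of the 4 light-series lists that overlapped by at least 1 bp were merged. A region was set against another list by an overlap of at least 1 bp. Gene models were those of RefSeq for TAIR10.1 (27444 protein-coding genes), and coordinates are 1-based. As a check of the build, 59.8% of dark midpoints lay in promoter windows, and 27.8% after a shift of 5000 bp. Midpoints were placed in the order promoter window, 5′ untranslated, coding, intron, 3′ untranslated, other. All 277 list genes were found by identifier. Merging, placing and motif search were tested on simulated peaks and sequences. Python 3.11.15, numpy 2.4.6, pandas 2.3.3 and scipy 1.17.1 were used.

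The regions, the gene lists and the motifs were chosen with earlier results of these data known. Named genes are those of the lists with a region in the promoter window. They further include the 10 regions with the highest lowest percentile over the 3 light lists, the 5 G-box and 3 each of I-box, evening element and telo-box promoter regions by that rank, the 5 such regions with no peak in light-grown seedlings, the 3 widest regions (ties taken by that rank) and up to 5 pairs under 1 kb apart. Other names were chosen after their values were seen. With 1 library per condition, no test was run. Alternatives were another merging overlap, lists of equal length, the upper 50% by signal, a distance of 150 bp from dark peaks, a window of 500 bp upstream to 100 bp downstream, and motifs in the whole region.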

Additional observations from a re-analysis of the deposited data

How the results depend on the processing

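No paired analysis was possible because each condition has 1 library and the samples carry no replicate numbers of separate plants. Of 205 alternative values, 142 stayed within the interval of the value given, or within 1.5 times a count, and 63 did not. The cause was not tested. The 142 include counts of 0 that stayed 0. They also include 39 values from leaving out regions with a dark peak within 150 bp, where the 693 regions left are part of the 821. The tally is thus no measure of how firm the results are. With merging at 75 bp, the regions of RBCS1A and YUC2 were lost. All regions of that setting had shares of 76.6% (LD control), 73.99% (spray control) and 74.99% (heat shock). The shares of early-opened, kept regions were 74.9%, 70.1% and 75.2%, in all 3 54.8% and in none 10.6%. With light lists of equal length (26712 peaks) they were 75.4%, 73.7%, 74.9%, 56.9% and 9.74%, with 447 of the 821 regions kept among 729; 5 list genes were touched and 174 touched genes had no dark peak in the window. LHCA5, LHCB1.4, LHCB1.5, YUC2 and CHLI1 were lost there. In the upper 50% by signal, 54 regions remained, with 59.3% in LD control, 57.4% in spray control, 38.9% in all 3, 55.6% in promoter windows, 9.26% with a G-box and 3.70% with TGGGCC. They touched 35 genes, 1 of them listed (MBF1C), and 0 without a dark peak in the window. With no dark peak within 150 bp, 693 regions remained and MBF1C was lost. An overlap of 75 bp with the lists of light-grown seedlings gave 59.4% in the spray control, 64.2% after heat shock, 41.2% in all 3 and 17.42% in none. With these lists shortened to 26712 peaks the 5 shares were 40.2%, 44.0%, 44.6%, 22.7% and 35.0%. The narrow promoter window (500 bp upstream, 100 bp downstream) held 50.7% of midpoints, against 43.4% of all regions, and 5 list genes. Light harvesting had 2 there, and both heat response and light protection and flavonoids had 0.

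Read depth is unknown and its part in these results was not tested.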
